A study of Homo sapiens with 9 samples.

Results

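The CCCGGG sites of the zinc finger gene clusters on human chromosome 19 were described in a methylation data set of HEK293T cells, a readily transfected line derived from human embryonic kidney cells that carries the SV40 T antigen. A site belonged to the set when its hg19 position fell in 1 of 6 stretches of chromosome 19 and its methylation was given in all 9 libraries. The stretches were called cluster A (11.6 to 12.6 Mb), B (19.6 to 24.4 Mb), C (36.6 to 38.4 Mb), D (44.3 to 45.0 Mb), E (52.3 to 54.0 Mb) and F (56.0 to 59.0 Mb), and cluster F was taken without the imprinted PEG3 locus at 57.3 to 57.4 Mb. These 379 sites were 13.0% of the 2906 sites listed in the clusters, and the whole series held 59751 complete sites among 382289. Cluster A gave 49 of them, B 75, C 60, D 11, E 44 and F 140. The other chromosome 19 sites used for comparison numbered 4571 of 17446 listed, or 26.2%, so the clusters were covered less completely.

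All 3 groups of 3 libraries were HEK293T cells transfected by Lipofectamine 2000 with a pIRES expression plasmid, and DNA was taken 4 days later. The plasmid was empty in the first group, carried TET1-FL, the full-length form, in the second, and carried TET1-ALT, an isoform without the CXXC domain, in the third. TET1 is a dioxygenase that oxidizes 5-methylcytosine, which can lead to its loss, and its CXXC domain binds CpG-rich DNA. The libraries were made by DREAM, in which SmaI cuts unmethylated CCCGGG and XmaI then cuts the methylated copies, so that the ends of the fragments tell both states apart at the 1 CpG inside each site. The values were percent methylation of sites read at least 20 times, and the depth above that minimum is unknown. Nothing in the labels said whether the 3 libraries of a group came from separate transfections, so each p-value reflects the spread among these libraries alone, which may be technical. The sources used here do not give the share of cells that took up a plasmid or the promoter driving TET1, and DREAM does not tell 5-methylcytosine from 5-hydroxymethylcytosine.

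The clusters hold most of the KRAB zinc finger genes of the human genome, which arose by repeated duplication in tandem. Their proteins bind DNA, often within transposable elements, and recruit KAP1 (TRIM28), which brings SETDB1 and trimethylation of lysine 9 on histone H3 and can favour DNA methylation. The promoters of these genes are commonly CpG islands that stay unmethylated in normal tissue, while the 3′ exons that encode the arrays of fingers lie in chromatin marked by the same histone modification. Methylation of such promoters is a known feature of many tumours and cell lines.

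The assay sees a zinc finger promoter only where it contains CCCGGG, and most do not. In the RefSeq table of promoters (GRCh38.p14, from 250 bases before to 50 bases after each annotated start), 331 promoters of 267 chromosome 19 genes had symbols beginning with ZNF, ZFP, ZIM, ZIK, ZSCAN, ZKSCAN or ZBTB. CCCGGG, which reads the same on both strands, occurred in 78 of them (23.6%), against 426 of 1586 promoters of the other chromosome 19 genes (26.9%). It occurred at least 2 times in 11 zinc finger promoters (3.32%) and in 84 others (5.30%). Of the 10 promoters with exactly 2 motifs in genes named ZNF, the 2 whose motifs lay farthest apart, 152 bases in ZNF347 and 147 bases in ZNF160, are shown to make plain how few CpGs are sampled in a promoter that the assay can read. Both genes lie on the minus strand of chromosome 19, and each line gives the 250 bases before the annotated start, 5′ to 3′ on the strand of the gene, with CCCGGG in capitals.
ZNF347: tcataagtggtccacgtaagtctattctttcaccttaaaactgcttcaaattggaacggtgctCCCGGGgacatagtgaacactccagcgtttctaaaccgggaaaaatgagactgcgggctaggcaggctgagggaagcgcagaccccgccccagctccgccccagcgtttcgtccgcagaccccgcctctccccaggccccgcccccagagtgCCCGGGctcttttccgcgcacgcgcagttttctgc
ZNF160: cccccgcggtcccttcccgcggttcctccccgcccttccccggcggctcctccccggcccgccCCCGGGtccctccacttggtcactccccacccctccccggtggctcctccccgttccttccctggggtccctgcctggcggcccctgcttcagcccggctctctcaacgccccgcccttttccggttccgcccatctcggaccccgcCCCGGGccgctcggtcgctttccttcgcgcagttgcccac
The sequences are from the reference genome and not from these cells. They are on another build than the sites, so sites were given by hg19 position and were not matched to genes, exons or introns.

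The cluster sites had lower methylation on average than the rest of the chromosome and more sites at low, non-zero levels. Their mean level over the 9 libraries was 36.1% (median 14.3%), against 46.4% (median 52.6%) at the other chromosome 19 sites. Sites of 5 to 20% methylation made up 54 of 379 (14.2%), against 249 of 4571 (5.45%) elsewhere on the chromosome. Sites of 80 to 95% made up 46 (12.1%) against 1151 (25.2%). The remaining classes were closer, with 145 sites under 5% (38.3% against 34.8%), 87 of 20 to 80% (23.0% against 25.2%) and 47 over 95% (12.4% against 9.34%). These shares describe the sites and were not tested, since neighbouring sites are not independent.

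The share of cluster sites at 5 to 20% was similar in every library. It was 14.8%, 14.0% and 14.5% in the empty vector libraries, 13.7%, 14.2% and 13.5% with TET1-ALT, and 13.7%, 14.2% and 12.7% with TET1-FL. The other chromosome 19 sites had between 5.10% and 5.58% in the same 9 libraries. The groups overlapped, and every library had the larger share in the clusters.

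Zinc finger clusters are poorer in CCCGGG than the gene-rich remainder of the chromosome, and this was visible in the sites. Sites with at most 2 other listed sites within 1000 bases made up 280 of 379 (73.9%), against 55.4% elsewhere on chromosome 19. Among sites under 5% methylation the gap was wider, 114 of 145 (78.6%) against 37.6%. With the clusters pooled, the larger share of 5 to 20% sites was present at both densities. It was 13.2% of the 280 sparse cluster sites against 5.88% of 2534 elsewhere, and 17.2% of the 99 denser ones against 4.91% of 2037. At the denser sites the clusters were uneven, with 23.8% of 21 in A, 33.3% of 12 in B and 38.5% of 13 in E. There it was 0 of 9 in C and 6.82% of 44 in F, and D had no denser site.

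**Figure D1:**
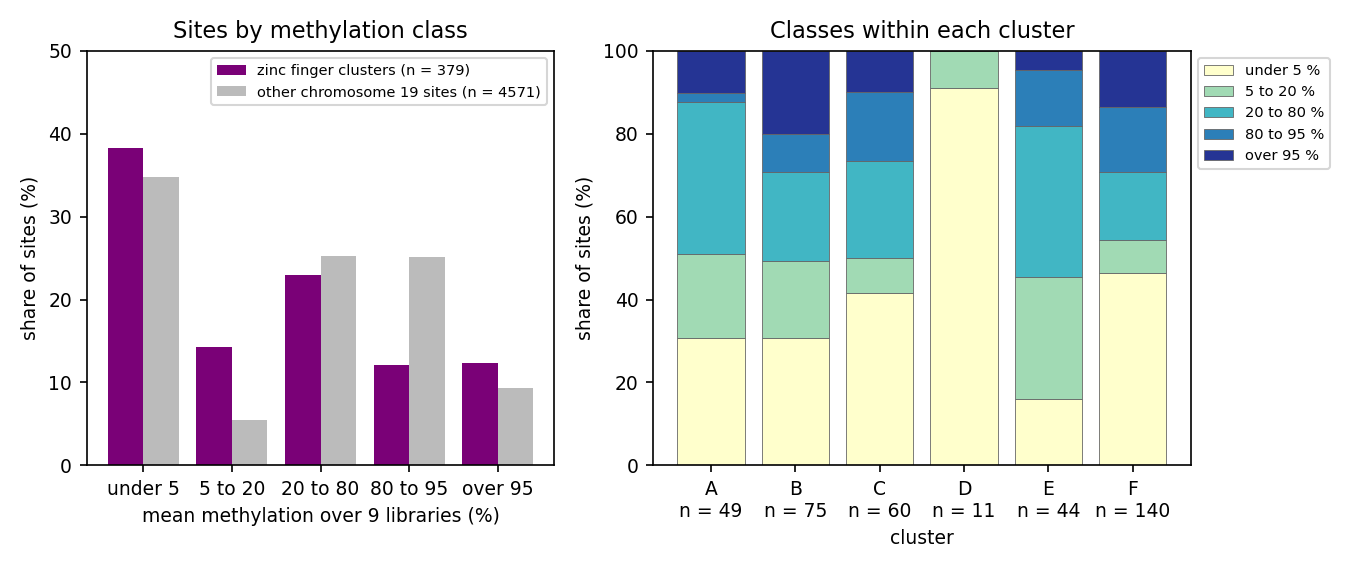
The left panel plots the percent of sites (vertical axis) in each of the 5 classes of mean methylation for the zinc finger clusters (379 sites) and the other chromosome 19 sites (4571), and the right panel stacks the same classes for clusters A to F. The 5 to 20% class is larger in the clusters (14.2% against 5.45%) and the 80 to 95% class smaller (12.1% against 25.2%), and cluster D is nearly all under 5%.

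The clusters differed from each other. Outside cluster D, cluster E had the smallest share of sites under 5% (15.9%), and of all clusters the largest at 5 to 20% (29.5%), with a further 36.4% at 20 to 80%. Its 5 to 20% sites numbered 13 of 44, and several of them were neighbours in a single stretch of 900 bases, described below. Cluster A had a share at 20 to 80% like that of E, 36.7%, but 30.6% under 5%, 20.4% at 5 to 20% and 2.04% at 80 to 95%, where E had 13.6%. Cluster B was near A at the low end, with 30.7% under 5% and 18.7% at 5 to 20%, and had the largest share over 95%, 20.0%. Clusters C and F had 8.33% and 7.86% at 5 to 20%, nearer to the rest of the chromosome. Their sites under 5% came to 41.7% in C and 46.4% in F. Cluster D held 10 sites under 5% and 1 at 14.3%, at position 44576522. Mean levels were 29.1% in A, 40.5% in B, 38.7% in C, 1.57% in D, 41.1% in E and 36.3% in F.

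Spread between libraries of a group was near that of other chromosome 19 sites of the same class. The median SD of a site was 3.00 points in the 20 to 80% class (2.80 elsewhere), 2.27 points at 80 to 95% (1.99), 1.55 points at 5 to 20% (1.63) and 0.870 points over 95% (0.989). Under 5% it was 0.193 points against 0.118, where the cluster sites also had the higher mean level (0.80% against 0.54%).

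Methylation changed abruptly over short distances inside the clusters. In cluster C the site at 36870204 had 0.21, 0.33 and 0.37% in the empty vector libraries, 0.17, 0.32 and 0.08% with TET1-ALT, and 0.26, 0.18 and 0.32% with TET1-FL. The next site, 182 bases on at 36870386, had 96.7, 97.0 and 97.1%, then 97.2, 96.8 and 93.8%, then 95.7, 98.4 and 97.4% in the same order. No library brought the 2 sites near each other. In cluster F the site at 58094880 was at 8.68% on average and its neighbour 125 bases away at 86.3%. A fall of the same kind, from 83.9% to 6.73%, spanned 84 bases between 58545592 and 58545676. In cluster E methylation went from 70.5% at 53635758 to 11.0% at 53635866, 108 bases away. These pairs were chosen for their size after the values were seen.

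Such steps at short range were about as common as elsewhere on the chromosome, while sites farther apart differed more. Of 137 pairs of neighbouring complete cluster sites more than 100 and up to 500 bases apart, 31 (22.6%) differed by 20 points or more, against 21.4% elsewhere on chromosome 19, and the median differences were 5.04 and 3.49 points. Of 42 pairs more than 2000 and up to 10000 bases apart, 69.0% differed by that much, against 54.7%, with medians of 57.7 and 24.1 points. Pairs share sites and libraries, so these shares are given without a test.

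Sites that lie close together were grouped into runs, each of 3 or more complete sites with gaps of at most 500 bases, which stand for short CpG-rich stretches. The clusters held 28 runs with 99 sites. All sites were under 5% in 6 runs and at 80% or above in 3, which left 19 (67.9%) with intermediate or mixed methylation, against 52.9% of runs elsewhere on the chromosome and 45.7% of all runs. The median range between the lowest and the highest site of a run was 17.7 points in the clusters, 12.0 on the rest of chromosome 19 and 6.94 over all runs. The 2 runs with most sites in each cluster showed how varied they were.

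The run with most sites was at 56631489 to 56633160 in cluster F, whose 9 sites averaged 8.59% at the first and between 0.08 and 0.73% at the others. The run with the next most sites, 6 at 53606082 to 53606982 in cluster E, was low throughout, with 2.10, 7.39, 15.0, 13.8, 8.72 and 6.55%. Its mean was 9.51, 10.1 and 8.59% in the empty vector libraries, 8.76, 8.02 and 8.24% with TET1-ALT and 9.10, 9.33 and 8.65% with TET1-FL. The TET1-FL libraries fell within the range of the empty vector libraries, and 2 of the 3 TET1-ALT libraries fell below it. In cluster A the 4 sites at 12348099 to 12348516 alternated, at 31.3, 10.7, 26.7 and 6.94%, and the run averaged 20.2 ± 1.80% (SD, n = 3) with the empty vector, 17.9 ± 1.22% with TET1-ALT and 18.7 ± 1.31% with TET1-FL. In cluster F the 5 sites at 58880108 to 58880627 ranged from 75.2 to 96.6%, and the run averaged 86.4 ± 2.06%, 86.5 ± 1.71% and 85.7 ± 0.579% in the same order.

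Other runs were highly methylated at part of their sites. The run at 19738529 to 19739682 in cluster B had 71.0, 95.5, 97.5 and 95.8%. The run at 22989758 to 22990332, also in B, went from 8.12 to 99.2 and 90.1%, a range of 91.1 points over 574 bases that was the widest of the 28. The run at 52839604 to 52840068 in cluster E rose from 25.7 through 55.9 to 67.9%. In cluster C the run at 36619083 to 36619310 averaged 0.35% and the one at 36736566 to 36736839 averaged 74.5%. Cluster D, with 11 complete sites, held no run.

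**Figure D2:**
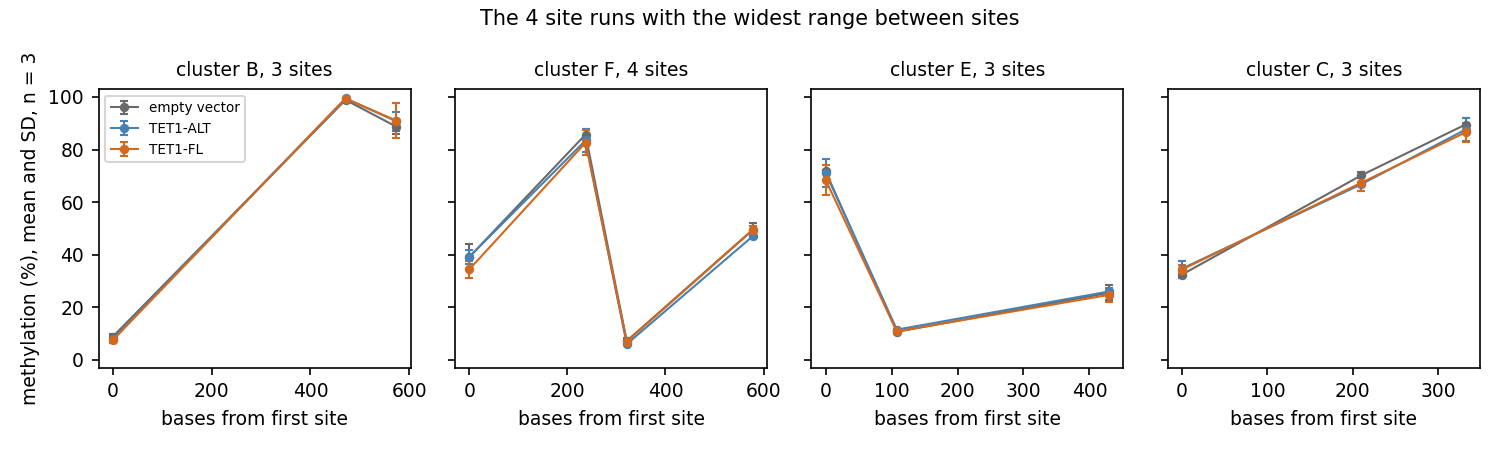
Percent methylation (vertical axis, mean ± SD of 3 libraries) is plotted against the distance in bases from the first site for the 4 runs with the widest range between sites, 1 each in clusters B, F, E and C, with a line for each group. Each run goes from low to high methylation or back within a short distance, by 91.1 points in the cluster B run, and the lines of the 3 groups follow the same course.

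The first comparison asked whether full-length TET1 lowered methylation in the zinc finger clusters relative to the empty vector, and whether it did so more than at other sites of the chromosome. Cluster sites were lower with TET1-FL by 0.786 points, and the groups separated at sites under 5% and at sites of 20 to 95%. At other chromosome 19 sites of like methylation the difference was -0.801 points, and the excess of the clusters lay within the spread between libraries. The mean of the 379 sites was 36.6, 36.5 and 36.3% in the empty vector libraries and 35.6, 35.7 and 35.8% in the TET1-FL libraries. The groups did not overlap, with differences between single libraries of -1.07 to -0.435 points and a two-sided exact permutation p of 0.1, the smallest that 3 libraries against 3 can give. Library means of the other sites were weighted to the cluster sites' numbers in steps of 5 points of mean methylation. The excess of the clusters over them was 0.015 points (range over library pairs -0.229 to 0.249, exact permutation p = 0.8). The 18 sites of the spiked-in standards averaged between 44.0 and 44.2% in all 9 libraries. The deposited values had been adjusted with such standards, so this agreement does not show that the libraries were comparable.

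In the 87 cluster sites of 20 to 80% the empty vector libraries had 50.7, 50.6 and 49.9% and the TET1-FL libraries 47.7, 48.4 and 49.2%. The groups did not overlap and differed by -1.97 points (library pairs -3.01 to -0.716, exact permutation p = 0.1), against -1.94 points at like sites. The 46 sites of 80 to 95% had 90.2, 89.9 and 89.7% with the empty vector and 88.0, 88.4 and 88.5% with TET1-FL, also without overlap. The difference there was -1.64 points (exact permutation p = 0.1) against -1.27 points at like sites, and the excess of -0.377 points had a range over library pairs that included 0 (-0.819 to 0.059, exact permutation p = 0.2). This difference and its excess rest in part on the lowest site of the class, in cluster F and described further below. It differed by -15.6 points, against a median of -1.49 points in the class. The 54 sites of 5 to 20% had 11.7, 11.5 and 10.5% against 11.3, 10.5 and 10.5%, and these groups overlapped, with a difference of -0.490 points (exact permutation p = 0.2). Like sites differed by -0.916 points there without overlap, and the excess of the clusters was 0.427 points with a range over library pairs that included 0 (-0.396 to 1.63, exact permutation p = 0.5). The 47 sites over 95% differed by -0.113 points, also with overlap (exact permutation p = 0.4). Like sites differed by -0.376 points without overlap, and the excess was 0.262 points (library pairs -0.0458 to 0.474, exact permutation p = 0.2).

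The 145 sites under 5% were lower with TET1-FL as well, by a small amount. They had 0.834, 0.800 and 0.932% with the empty vector and 0.725, 0.710 and 0.737% with TET1-FL, without overlap, a difference of -0.131 points (exact permutation p = 0.1). The median site differed by -0.017 points, with 83 sites lower (57.2%, against 56.3% over all sites of the class) and 60 higher, and the lowest single site by -3.87 points. That lowest site, whose empty vector libraries differed widely, is described further below. Like sites fell by 0.064 points, and the excess of the clusters was -0.067 points (library pairs -0.117 to -0.019, exact permutation p = 0.1). The cluster sites in this class had the higher starting level. When the class was split further at 0.2, 0.5, 1 and 2% the excess was -0.044 points and its range over library pairs included 0 (-0.091 to 0.0058, exact permutation p = 0.2).

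**Figure D3:**
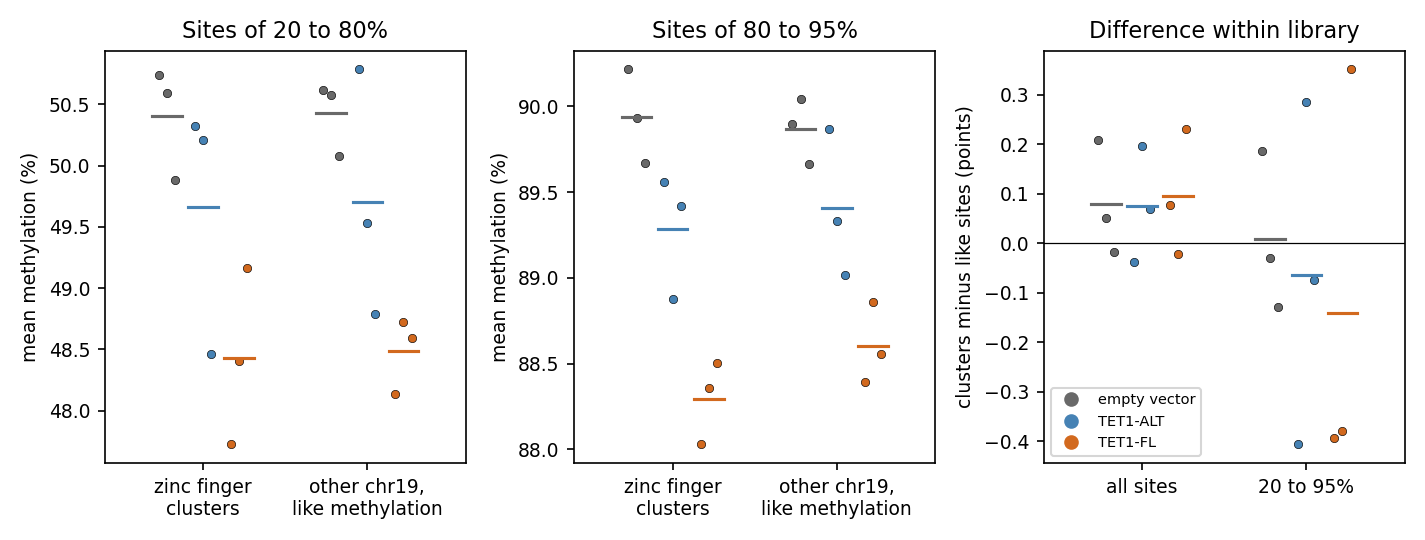
Mean percent methylation of each library (points, with a line at the mean of each group of 3) is plotted for sites of 20 to 80% and of 80 to 95%, in the clusters and at other chromosome 19 sites of like methylation, and the third panel plots the clusters minus the like sites in percentage points. TET1-FL libraries lie below the empty vector libraries in both classes, by 1.97 and 1.64 points in the clusters, while the groups overlap in the third panel.

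The fall was present in each of the 5 clusters with partly methylated sites. Among sites of 20 to 95% methylation the difference of TET1-FL from the empty vector was -2.05 points in cluster A (19 sites), -1.82 in B (23 sites), -1.42 in C (24 sites), -1.57 in E (22 sites) and -2.17 in F (45 sites). In cluster A the libraries had 44.5, 44.3 and 44.7% against 42.4, 42.8 and 42.2%. In cluster F they had 69.6, 70.1 and 68.8% against 66.9, 67.4 and 67.7%. The groups did not overlap in any of the 5 clusters, each with an exact permutation p of 0.1 and 0.1 after adjustment over the 5 clusters. Set against like sites of the chromosome, the groups overlapped in all 5, with excesses of -0.131 points in A, -0.144 in B, 0.216 in C, 0.177 in E and -0.515 in F (exact permutation p from 0.2 in F to 1 in E). Cluster E had the narrowest gap, with 66.4, 66.6 and 66.5% in the empty vector libraries and 63.8, 64.7 and 66.3% in the TET1-FL libraries. The excess in cluster F rests in part on its lowest site, described below, which differed by -15.6 points. Cluster D had no site of 20 to 95%. Over all sites of a cluster the groups separated in A (-0.997 points), B (-0.781), C (-0.752) and F (-0.767) and overlapped in D (-0.0876) and E (-0.839 points, library pairs -1.48 to 0.0757, exact permutation p = 0.2).

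**Figure D4:**
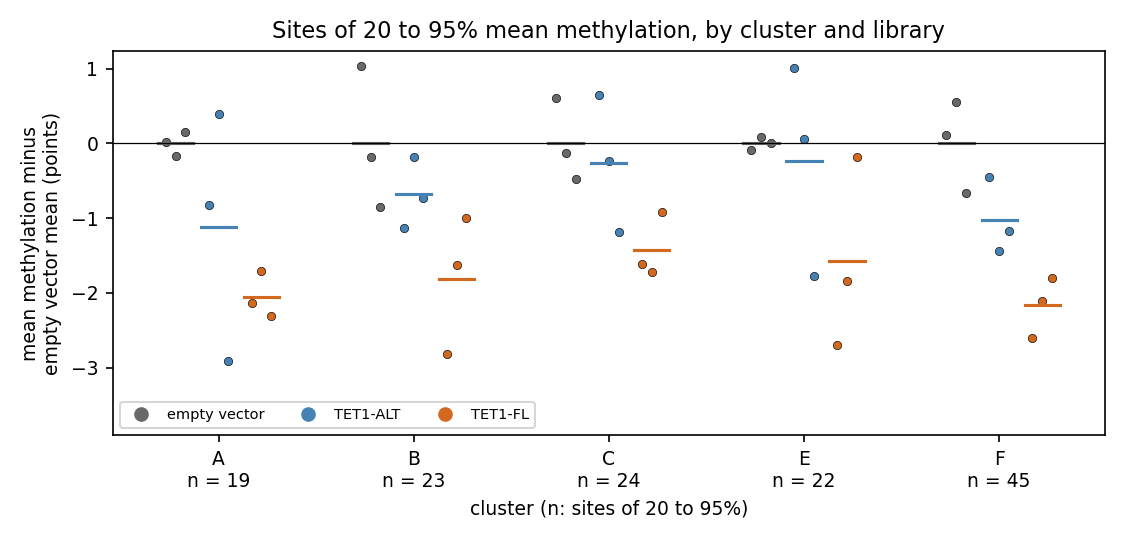
For sites of 20 to 95% methylation in clusters A, B, C, E and F, each point is the mean of 1 library minus the mean of the empty vector libraries, in percentage points (vertical axis), with a line at the mean of each group. Every TET1-FL point lies below the empty vector points of their cluster, whereas the TET1-ALT points overlap them in every cluster.

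No single cluster site passed the test across the genome. In limma's fit over 59751 sites, where a call needed an adjusted p under 0.05, none of the cluster sites was called (0 of 379, background 0.0%) and their lowest adjusted p was 0.381. Before adjustment 37 cluster sites had p under 0.05 against a background of 10.8%, 32 of them lower (8.44%, background 9.72%) and 5 higher (1.32%, background 1.11%). The TET1-FL and empty vector libraries did not overlap at 47 lower sites (12.4%, background 14.9%) and 9 higher sites (2.37%, background 2.13%), and the other chromosome 19 sites weighted to like methylation gave 14.9% and 2.20%. The shares in the clusters were near those of the background. The median difference was -0.150 points, with 242 sites lower and 134 higher. The lower share was 63.9%, against 66.6% over all sites and 67.1% at the other chromosome 19 sites weighted to like methylation.

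The site with the largest separated fall was at 58991829 in cluster F, chosen after its values were seen. It had 89.4, 95.2 and 97.7% in the empty vector libraries, 83.2, 78.0 and 89.9% with TET1-ALT and 83.9, 74.1 and 77.6% with TET1-FL. All TET1-FL libraries lay below all empty vector libraries, and the TET1-ALT libraries lay lower too except for 1 that overlapped. The difference of TET1-FL was -15.6 points (SE 3.74, limma adjusted p = 0.381). At 56698650 in the same cluster, chosen likewise, the empty vector libraries had 51.9, 51.2 and 59.5%, the TET1-ALT libraries 47.8, 50.3 and 42.8% and the TET1-FL libraries 44.2, 44.7 and 47.3%. Both TET1 groups lay below the empty vector there, with differences of -7.21 points for TET1-ALT and -8.80 points for TET1-FL.

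The site with the largest separated rise was at 58220395, also in cluster F and also chosen after its values were seen. It had 93.7, 90.1 and 89.4% with the empty vector, 96.7, 95.9 and 95.6% with TET1-ALT and 96.6, 95.3 and 96.8% with TET1-FL. Both TET1 groups lay above the empty vector and overlapped each other, and the difference of TET1-FL was 5.19 points (SE 1.13, limma adjusted p = 0.381).

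Among runs, fewer separated downward than in the background. No cluster run was called (0 of 28, background 0.0% of 5984 runs, smallest limma adjusted p 0.336), and at an unadjusted p under 0.05 there were 2, against a background of 13.2%, none lower (background 11.9%) and 2 higher (background 1.32%). The means of 23 runs (82.1%) were lower with TET1-FL and of 5 higher, against 73.0% lower over all runs. Libraries did not overlap in 2 lower runs (7.14%, background 18.8%) and 2 higher runs (7.14%, background 2.04%). With 28 runs these shares rest on few of them, and they were not tested. The 2 lower ones were both in cluster A. The run at 11687997 to 11688551, with sites at 95.8, 91.4 and 43.8%, averaged 78.0, 76.6 and 78.4% with the empty vector and 75.1, 76.3 and 75.8% with TET1-FL, a difference of -1.93 points (SE 1.07, limma adjusted p = 0.455). The run at 12595366 to 12595946 averaged 12.6, 11.9 and 11.9% against 11.3, 11.8 and 11.3%. The 2 higher runs, at 56152505 and 56154960 in cluster F, were nearly unmethylated and rose by 0.060 and 0.087 points, to 0.18 and 0.24%.

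The second comparison was of TET1-ALT, the form without the CXXC domain, with the empty vector. Cluster sites were lower by 0.289 points on average, but the libraries overlapped, and so did the excess over like sites. The means were 36.5, 36.3 and 35.9% with TET1-ALT against 36.6, 36.5 and 36.3% with the empty vector (library pairs -0.782 to 0.179, exact permutation p = 0.2). The difference was -0.139 points with each region narrowed by 100 kb at both ends and -0.123 points without TET1-ALT replicate 3. The excess over like sites was -0.004 points (library pairs -0.246 to 0.215, exact permutation p = 0.9). Of the 5 classes only that of 80 to 95% separated, with 89.6, 88.9 and 89.4% against 90.2, 89.9 and 89.7%, a difference of -0.652 points (exact permutation p = 0.1). That difference rests in part on the cluster F site with the largest separated fall, described above. It differed here by -10.4 points, against a median of -0.695 points in the class, and the separation may not hold without it. Like sites differed by -0.463 points there with overlap. The excess of the clusters was -0.189 points, with a range over library pairs that included 0 (-0.773 to 0.520, exact permutation p = 0.6). Sites of 20 to 80% had 50.3, 50.2 and 48.5% against 50.7, 50.6 and 49.9% and overlapped (exact permutation p = 0.4). Sites under 5% differed by -0.044 points with overlap (exact permutation p = 0.4), and like sites by -0.047 points without overlap (exact permutation p = 0.1).

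Among sites of 20 to 95% none of the 5 clusters separated, with differences of -1.11 points in A, -0.680 in B, -0.261 in C, -0.233 in E and -1.02 in F. Over all its 140 sites cluster F did separate, by -0.372 points (library pairs -0.605 to -0.0086, exact permutation p = 0.1), and the other 5 clusters overlapped. Cluster F includes the site with the largest separated fall under TET1-FL, described above, which differed here by -10.4 points. The separation of cluster F may not hold without that site. Limma called no cluster site (0 of 379, background 0.0%, smallest adjusted p 0.673), and 38 had an unadjusted p under 0.05, against a background of 7.22%. Of these 28 were lower (7.39%, background 5.49%) and 10 higher (2.64%, background 1.73%). Libraries did not overlap at 39 lower sites (10.3%, background 10.1%) and 16 higher sites (4.22%, background 3.14%). Of the 28 runs none was called (background 0.0%, smallest limma adjusted p 0.762), and 1 had an unadjusted p under 0.05 (background 6.17%). That run, at 12306072 to 12306259 in cluster A, was higher with TET1-ALT (background 1.45%, and 4.71% for lower runs). The libraries were separate in 1 lower run (background 8.41%), at 12595366 to 12595946 in cluster A, by -1.10 points, and in 1 higher run (background 2.74%), the nearly unmethylated one at 56152505 in cluster F.

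The third comparison set the full-length form against TET1-ALT, the isoform without the CXXC domain. The labels name no other difference between the proteins, which may exist. Cluster sites were lower with TET1-FL by 0.497 points without overlap, with library means of 35.6, 35.7 and 35.8% against 36.5, 36.3 and 35.9% (library pairs -0.886 to -0.018, exact permutation p = 0.1). The excess over like sites was 0.020 points (library pairs -0.218 to 0.269, exact permutation p = 0.7). The classes that separated were 80 to 95% and under 5%. Sites of 80 to 95% had 88.0, 88.4 and 88.5% against 89.6, 88.9 and 89.4%, a difference of -0.991 points (exact permutation p = 0.1). Like sites of that class differed by -0.803 points, also without overlap. The excess of the clusters there was -0.188 points, with a range over library pairs that included 0 (-0.911 to 0.403, exact permutation p = 0.6). Sites under 5% differed by -0.088 points (exact permutation p = 0.1), and their excess over like sites in the finer steps was -0.067 points (library pairs -0.105 to -0.018, exact permutation p = 0.1). These means rest in part on a few sites. The median site of the class differed by -0.0067 points, with 77 sites lower (53.1%, against 49.5% over all sites of the class) and 64 higher, and the lowest single site by -5.24 points. Sites of 20 to 80% overlapped, with a difference of -1.23 points (library pairs -2.60 to 0.698, exact permutation p = 0.2). Like sites of that class differed by -1.22 points without overlap (exact permutation p = 0.1). The excess of the clusters was -0.017 points, with library pairs from -1.09 to 1.02.

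No cluster site (smallest limma adjusted p 0.835) and no cluster run (smallest limma adjusted p 0.734) was called between the 2 isoforms, against a background of 0.0% for both. An unadjusted p under 0.05 was reached by 22 sites (background 5.55%), of which 16 were lower (4.22%, background 4.46%) and 6 higher (1.58%, background 1.1%). It was reached by 2 runs (background 6.22%), 1 lower (background 5.15%) and 1 higher (background 1.07%). Libraries did not overlap at 27 lower sites (7.12%, background 7.36%), at 9 higher sites (2.37%, background 1.94%), in 2 lower runs (background 10.0%) and in no higher run (background 1.6%). The run at 12306072 to 12306259 in cluster A had the largest difference. Its 3 sites, between 21.6 and 63.3%, averaged 38.3, 39.4 and 40.6% with TET1-FL, 43.6, 45.1 and 46.6% with TET1-ALT and 44.6, 41.2 and 40.5% with the empty vector. TET1-FL lay below TET1-ALT in every library, by 5.69 points (SE 1.28, limma adjusted p = 0.734), and the empty vector libraries overlapped both. The other separated run, at 56162591 to 56162898 in cluster F, had 93.0, 94.2 and 94.4% with TET1-FL against 95.3, 95.2 and 94.8% with TET1-ALT.

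The 3 comparisons share libraries pairwise, so their values are not independent of each other. In the site at 22700259 of cluster B, singled out after its values were seen, the spread lay in the empty vector itself. It had 1.86, 6.41 and 16.9% there, 0.60, 1.03 and 0.89% with TET1-ALT and 4.14, 4.84 and 4.55% with TET1-FL. TET1-ALT lay below both other groups, and the TET1-FL libraries lay within the range of the empty vector. Its mean put this site in the class under 5%. There it had the lowest difference of any cluster site from the empty vector, -3.87 points with TET1-FL and -7.54 points with TET1-ALT. Its difference of TET1-FL from TET1-ALT, 3.67 points, was the highest of the cluster sites in that class.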

How the data were processed

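Genomic DNA of 9 HEK293T libraries was measured by DREAM, and groups were taken from the sample titles. The deposited table gives percent methylation per CCCGGG site on hg19, the build in the submitters' processing notes. Per the labels, it was computed by the authors as methylated reads over all reads, adjusted with spiked-in standards, for sites with at least 20 reads, after 18 cycles of amplification. Limma on percent values was the planned test. A model on counts was planned only if the table gave read counts, which it did not.

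Sites with a value in all 9 libraries were used. Per site and per run, limma 3.58.1 (R 4.3.3, trend and robust moderation) was fitted on the whole table with all 3 groups, with Benjamini-Hochberg adjustment over all sites or runs and calls at an adjusted p under 0.05. Means per library were compared by two-sided exact permutation tests over the 20 assignments (Python 3.11.15, numpy 2.4.6). Ranges over library pairs are the lowest and highest of the differences between single libraries. Other chromosome 19 sites were weighted to the members' numbers in 5-point bins of the mean over all 9 libraries. Runs named were the 2 with most sites in each cluster (the lower position at ties), those whose libraries did not overlap (up to 5 each way for TET1-FL against the empty vector, 2 each way otherwise) and any called. A gene was to be named only where the spacing of 4 or more promoter motifs matched the sites once, and no cluster gene met this. Members, lists and tests were chosen with earlier results of these data known. The alternatives were other filters, scales, bins and region limits, other comparison sites, other limma settings, leaving out each library and a replicate block.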

Additional observations from a re-analysis of the deposited data

How the results depend on the processing

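The mean differences of all 379 sites and of sites of 20 to 95% kept their direction under every alternative run. For TET1-FL against the empty vector the means without 1 library ranged from -0.888 to -0.705 points over all sites and from -2.13 to -1.58 points at 20 to 95%. For TET1-ALT against the empty vector they ranged from -0.421 to -0.123 and from -0.971 to -0.338 points, with the smallest differences without TET1-ALT replicate 3, and for TET1-FL against TET1-ALT from -0.663 to -0.365 and from -1.52 to -0.872 points. With regions narrowed by 100 kb at both ends the differences of TET1-ALT from the empty vector were -0.139 and -0.328 points. Limma called 0 cluster sites and 0 cluster runs under every alternative run.

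The excess of the clusters over like sites, near 0 in each comparison, changed sign without passing a test (p from 0.2 to 1 over its alternatives). For TET1-FL against the empty vector it was -0.047 points with sites given in at least 2 libraries of each group and -0.058 against all other autosomes. Without 1 library it ranged from -0.0525 (without TET1-FL replicate 3) to 0.0788, and it was also negative, -0.0342, without empty vector replicate 3. For TET1-ALT against the empty vector it was 0.0024 on a log2 scale of methylated over unmethylated percent, 0.142 with regions narrowed by 100 kb at both ends, 0.0209 with 5 classes as bins, 0.0189 with bins crossed with density and 0.0031 with the bins under 5% split, an alternative added after the data were seen. Without 1 library it ranged from -0.0647 to 0.0593, and it was positive without empty vector replicate 1 or TET1-ALT replicate 1. For TET1-FL against TET1-ALT it was -0.0384 with narrowed regions and -0.0082 against all other autosomes. Without 1 library it ranged from -0.0481 (without TET1-FL replicate 3) to 0.0798, and it was -0.0374 without TET1-ALT replicate 1. The cause was not tested.

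The correlations of same-numbered libraries' deviations across sites of 20 to 95% lay between -0.015 and 0.017. Such correlations do not show an offset common to all sites of a library, so they cannot tell whether replicate numbers pair the libraries. The means of the cluster sites fell from replicate 1 to 3 with the empty vector and with TET1-ALT, and rose with TET1-FL. With the replicate block the differences were as above by construction, -0.786, -0.289 and -0.497 points over all sites, with an exact sign-flip p of 0.25, the smallest that 3 pairs allow, and limma with the block called 0 cluster sites and 0 runs. The tests within each cluster on sites of 20 to 95% were planned. The pooled results for those sites, their alternatives and each cluster's excess over like sites were added after the data were seen. The depth above the minimum of 20 reads is unknown, so the counting error of a site could not be computed.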
